A study of Mus musculus with 13 samples.

Results

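The antioxidant and glutathione genes are 36 mouse genes whose products remove reactive oxygen species, make or use glutathione, keep thiols reduced, bind metals or regulate those functions. They were chosen by symbol: a gene counted as measured when at least 1 probe set on the array carried its symbol and no other. By that rule 33 of the 36 were measured, out of 18193 genes in all, and they were read by 71 of the 45037 probe sets tested. For Prdx1 the array has 5 probe sets that also carry a second symbol, and these were not used. Prdx1, Prdx5 and Prdx6 are not analysed here.

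The creatine-fed group was 6 male C3HeB/FeJ mice given pellets with 1% creatine for 6 months. The untreated group was 7 male mice of the same inbred strain, whose feed had equal calories and no added creatine. Feeding began at an age of 10 to 12 weeks in both groups, and no genetic change is labelled in either. One brain hemisphere per mouse was profiled from total RNA on a 1-colour Affymetrix array, so each value mixes all cell types of the tissue. The series title names creatine, health and life span, and the comparison addresses whether hemisphere transcripts differ with the feed.

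Glutathione is a tripeptide thiol that cells make in 2 steps and oxidise when they detoxify peroxides. The glutamate-cysteine ligase of the first step consists of a catalytic subunit, Gclc, and a modifier subunit, Gclm. The transcription factor Nrf2, encoded by Nfe2l2, is held at low levels by Keap1 and, once released by oxidants or electrophiles, drives many of these genes through antioxidant response elements. Peroxiredoxins and thioredoxins form a parallel thiol system, and metallothioneins are small cysteine-rich proteins that bind zinc and copper. In brain much of the glutathione system is carried by astrocytes.

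No member passed limma's test at a Benjamini-Hochberg adjusted p under 0.05, where 0.00888% of all probe sets passed. The smallest adjusted p among the members was 0.139, for Gpx4. At an unadjusted p under 0.05 there were 4 members, or 12.1%, against a background of 11.2% of all genes, so the members' share is near the background. Of these, 3 were lower (Gpx4, Mgst1 and Txnrd2), against 7.61% of all genes in that direction. The other was Gclc, which was higher, against 3.58% of all genes. After each array was centred on its median the count was 2, Gclc and Gpx4, where 9.81% of all genes had such a p. It was also 2 without creatine-fed replicate 3, where 9.1% of all genes did. Each gene is represented here by its brightest probe set, the one with the highest mean over the 13 arrays.

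The differences were small for most members. In log2 units, creatine-fed minus untreated, 24 of the 33 lay within 0.1 of 0, and for 25 the whole 95% interval lay within 0.3 of 0. The median difference was 0.00, and that of all genes was -0.03. Means were lower in creatine-fed mice for 16 members, or 48.5%, where 58.5% of all genes were lower. After each array was centred on its own median, 10 of the 33 were lower and 42.5% of all genes were, so no direction is given for the group. Values did not overlap between creatine-fed and untreated mice for 1 member, Gpx4, against 0.649% of all genes. The p-values set each group difference against the spread between these mice, moderated by eBayes over all probe sets. In tissue RNA fewer cells of a type cannot be told apart from less RNA per cell.

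**Figure D1:**
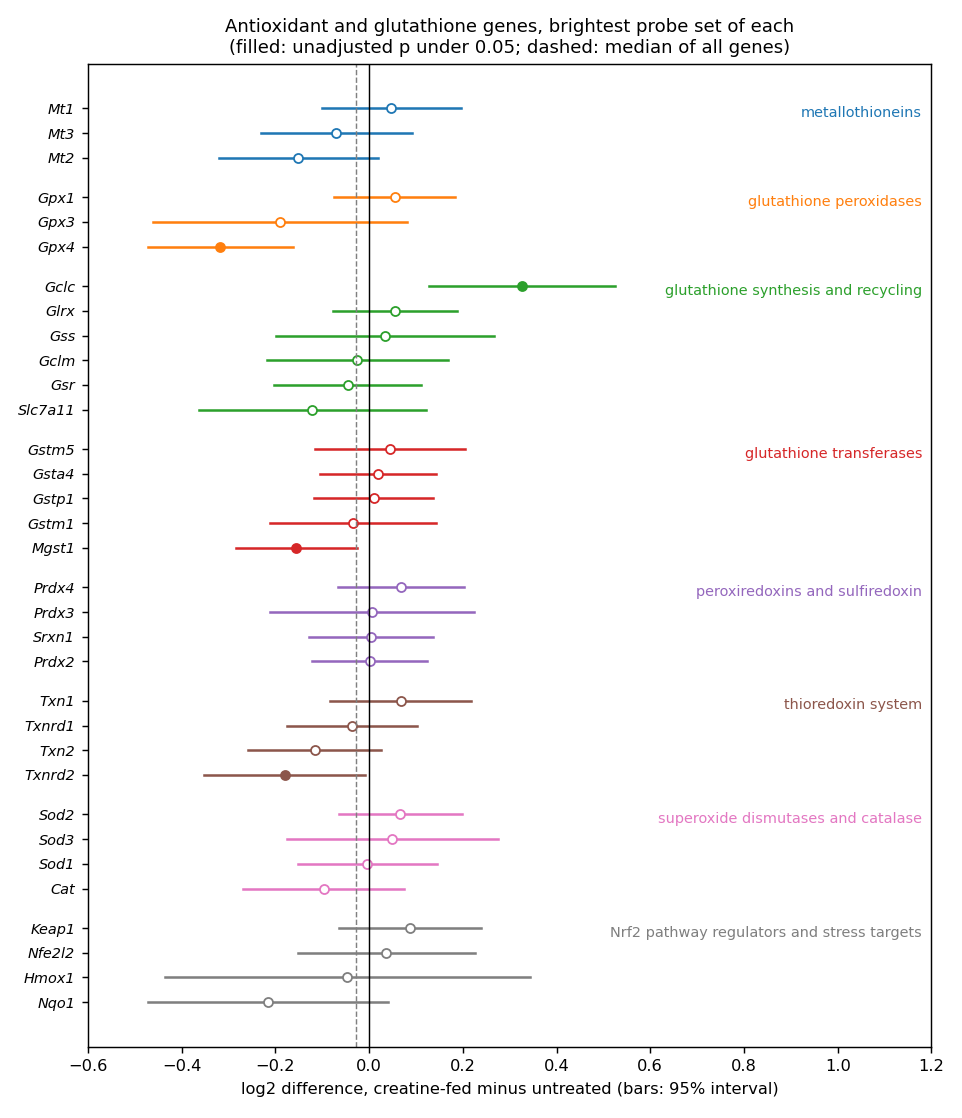
Log2 difference (creatine-fed minus untreated) of the 33 measured members on the horizontal axis, 1 row per gene at its brightest probe set, grouped by role; bars are 95% intervals, filled points have an unadjusted p under 0.05 and the dashed line is the median of all genes. The intervals of 29 members include 0, while those of Gpx4, Mgst1 and Txnrd2 lie below it and that of Gclc lies above it.

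The Nrf2 regulators did not differ past the threshold. Keap1, the adaptor that hands Nrf2 to a ubiquitin ligase, read 274 to 333 (median 310) in creatine-fed mice and 254 to 326 (median 291) in untreated mice, which differed by 0.09 ± 0.07 in log2 units (SE, adjusted p = 0.676). The 2 groups overlapped over most of their range. Its second probe set, 1450747_at, read 131 to 188 in creatine-fed mice and 113 to 145 in untreated mice (log2 difference 0.21, unadjusted p = 0.0319 by limma, adjusted p = 0.371). Nfe2l2 itself read 143 ± 15.4 (SD, n = 6) in creatine-fed mice and 139 ± 16.7 (SD, n = 7) in untreated mice, a log2 difference of 0.04.

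Nqo1 and Hmox1 are the classic stress targets of Nrf2. Nqo1, a quinone reductase, read 37 to 60 (median 48) in creatine-fed mice and 41 to 75 (median 65) in untreated mice, lower by a log2 difference of -0.22 ± 0.12 (SE, adjusted p = 0.508). The groups overlapped, although 5 of 6 creatine-fed mice read less than the untreated mean. Hmox1, the inducible haem oxygenase, was dim, at 11 to 28 in creatine-fed mice and 9 to 40 in untreated mice. Its group means of 19.3 in creatine-fed mice and 21.1 in untreated mice were below every array's median intensity, which ran from 37 to 45. Its interval ran from -0.44 to 0.34, and a difference within it was not detectable at this intensity.

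Gclc was the member with the largest positive difference. At 1424296_at it read 421 to 593 (median 546) in creatine-fed mice and 363 to 489 (median 402) in untreated mice. All but 1 of the creatine-fed mice lay above every untreated mouse, and creatine-fed replicate 4, at 421, was under the untreated mean of 425 ± 45.7 (SD, n = 7). The log2 difference was 0.33 ± 0.09 (SE, 95% interval 0.13 to 0.52), a 1.25-fold level, with an unadjusted p of 0.00335 and an adjusted p of 0.215 in limma's fit. A second probe set of the gene, 1455959_s_at, gave 279 ± 18.1 (SD, n = 6) in creatine-fed mice and 282 ± 19.7 (SD, n = 7) in untreated mice, a log2 difference of -0.01 ± 0.07 (SE). The 2 probe sets of Gclc therefore disagreed, and the reason was not tested.

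Gclm, the partner subunit, also gave different readings at its 2 probe sets. The brightest, 1439050_at, read 233 to 321 (median 271) in creatine-fed mice and 246 to 339 (median 282) in untreated mice, which differed by -0.02 ± 0.09 in log2 units (SE, adjusted p = 0.950). At 1418627_at the gene read 187 to 286 (median 257.5) in creatine-fed mice and 153 to 251 (median 187) in untreated mice. That probe set had a log2 difference of 0.36 ± 0.13 (SE, 95% interval 0.09 to 0.64, adjusted p = 0.289), with 3 of 6 creatine-fed mice above all untreated mice. One probe set of each subunit thus had a higher mean in creatine-fed mice, by 0.33 and 0.36 in log2 units, and the other pair of probe sets differed by -0.01 and -0.02. None of the 4 passed after adjustment.

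The promoter window of Gclm is shown because the gene is a textbook Nrf2 target and 1 of its probe sets varied with Gclc. It covers 250 bases before to 50 after the annotated start, from RefSeq on GRCm38.p6, chr3:122245307-122245606, on the plus strand. Capitals mark the 1 match to the antioxidant response element core, TGACNNNGC, which here reads on the opposite strand and begins at base 117 of the window.
Gclm: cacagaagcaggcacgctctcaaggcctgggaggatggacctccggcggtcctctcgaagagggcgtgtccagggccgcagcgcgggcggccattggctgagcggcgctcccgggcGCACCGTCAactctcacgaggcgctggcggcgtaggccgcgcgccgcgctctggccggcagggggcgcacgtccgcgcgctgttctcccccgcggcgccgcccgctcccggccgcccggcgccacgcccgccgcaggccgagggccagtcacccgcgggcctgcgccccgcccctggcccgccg

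Of the 36 members, 30 had such a window, some with several starts, giving 38 windows. Gclc, Gsr, Gsta4, Hmox1, Prdx6 and Sod3 had no window and were not searched. The antioxidant core occurred in 9 of the 38 windows, or 23.7%, each of a different gene, compared with 12.4% of 32851 promoters of the same length, both strands searched. Besides Gclm these were Gstm5, Mgst1, Mt2, Nfe2l2, Prdx1, Sod1, Srxn1 and Txnrd1. Such a match is a description of the letters and not of binding.

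The remaining enzymes of glutathione synthesis and recycling did not differ past the threshold. Glutathione synthetase, Gss, which adds glycine in the final step, differed by 0.03 ± 0.11 in log2 units (SE), and Gsr, the reductase that regenerates glutathione, by -0.05 ± 0.07 (SE). Slc7a11, the cystine importer, read 45 to 82 (median 63) in creatine-fed mice and 59 to 85 (median 71) in untreated mice, with a log2 difference of -0.12. Glrx, which removes glutathione from protein thiols, differed by 0.06 at its brightest probe set, with 348 ± 15.2 (SD, n = 6) in creatine-fed mice and 335 ± 22.6 (SD, n = 7) in untreated mice. The second probe set of Glrx differed by -0.13, and all 6 creatine-fed values were under the untreated average.

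Gpx4, a selenoprotein that reduces lipid hydroperoxides in membranes, was the member with the smallest p. At 1451695_a_at it read 1613 to 2102 (median 1828) in creatine-fed mice and 2147 to 2395 (median 2282) in untreated mice. Every creatine-fed mouse lay below every untreated mouse, and the creatine-fed mice were more spread, at 1835 ± 194 (SD, n = 6), than the untreated mice at 2281 ± 84.3 (SD, n = 7). The log2 difference was -0.32 ± 0.07 (SE, 95% interval -0.47 to -0.16), a ratio of 0.803, with an adjusted p of 0.139 in limma's fit. It passed at an adjusted p of 0.0471 when only the 22519 brighter probe sets were tested, where 137 of them passed (0.608%). With the trend and robust options of eBayes its adjusted p was 0.0142, and 161 of all probe sets passed (0.357%).

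The second probe set of Gpx4 gave a smaller difference in the same direction. At 1456193_x_at, whose suffix tells that some of its probes may bind further transcripts, Gpx4 read 1759 to 2097 (median 1918) in creatine-fed mice and 1944 to 2247 (median 2069) in untreated mice. The groups overlapped there, with 3 of 6 creatine-fed mice below all untreated mice, and the log2 difference was -0.11 ± 0.07 (SE, adjusted p = 0.549). With the probe sets of each gene averaged, Gpx4 differed by -0.21 (adjusted p = 0.217).

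Gpx1 and Gpx3 were also measured. Gpx1, the cytosolic and mitochondrial glutathione peroxidase, read 670 to 732 (median 693.5) in creatine-fed mice and 608 to 726 (median 683) in untreated mice, a log2 difference of 0.05 ± 0.06 (SE). Gpx3, a secreted peroxidase, had a wide spread, at 164 to 245 (median 216.5) in creatine-fed mice and 175 to 280 (median 258) in untreated mice, and differed by -0.19 ± 0.13 (SE, adjusted p = 0.588). Neither pair of groups was apart.

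**Figure D2:**
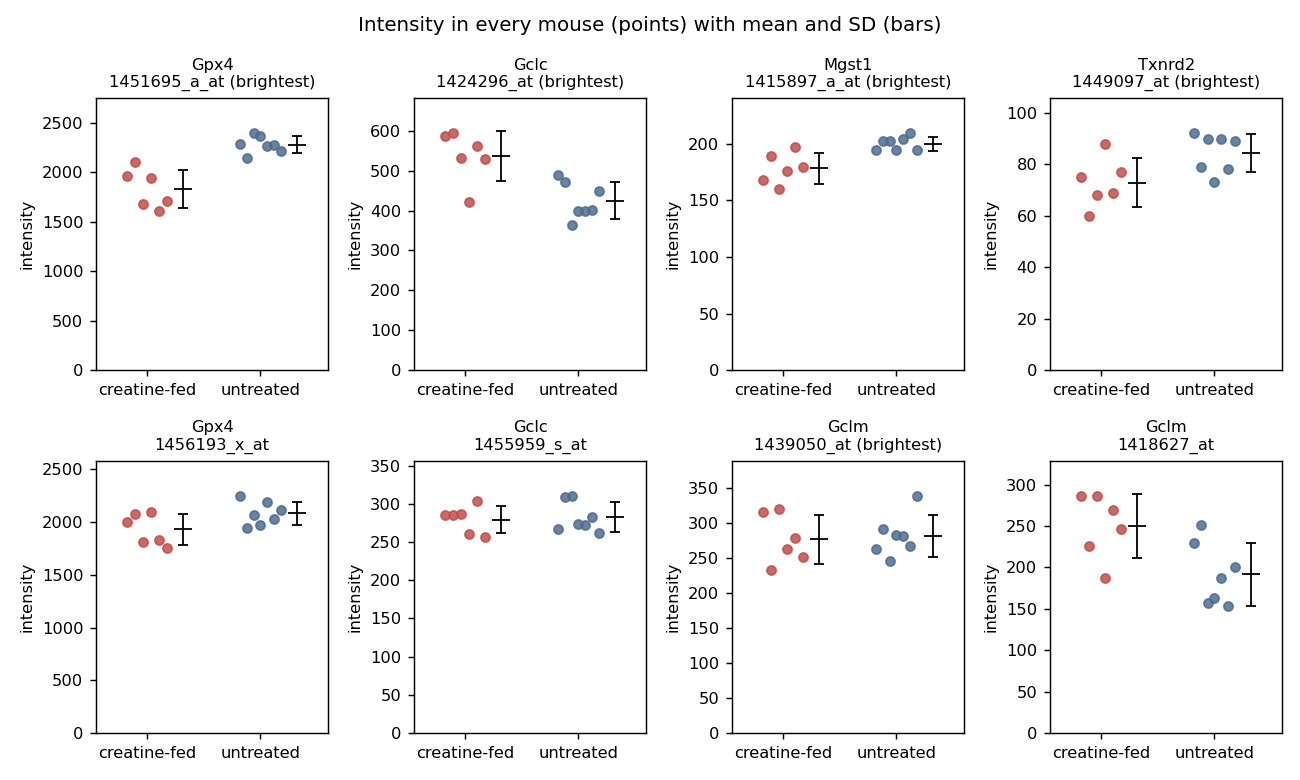
Intensity (vertical axis, linear from 0) in each of the 6 creatine-fed and 7 untreated mice for the 4 members with an unadjusted p under 0.05 at their brightest probe set (upper row) and for further probe sets of Gpx4 and Gclc and both of Gclm (lower row); points are mice and bars the mean with SD. Gpx4 at 1451695_a_at is the panel in which the groups do not overlap, while Gclc and Gclm each have 1 probe set with higher creatine-fed values and 1 without.

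Among the glutathione transferases, which join glutathione to electrophiles, Gstp1 read 2527 to 3023 (median 2744) in creatine-fed mice and 2637 to 2924 (median 2734) in untreated mice. The log2 difference was 0.01 ± 0.06 (SE), and the untreated values lay inside the creatine-fed range. Gsta4, which conjugates lipid aldehydes, differed by 0.02, Gstm5 by 0.05 and Gstm1 by -0.03. All 4 probe sets of Gstm1 had lower means in creatine-fed mice, from -0.18 to -0.03, none past the threshold. Lower means were found for 58.5% of all genes, and after centring the brightest Gstm1 probe set differed by 0.017. Genes of the Gstm family are close in sequence, so a probe set of 1 may also bind transcripts of others.

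Mgst1 is a membrane-bound transferase that also reduces lipid peroxides. At 1415897_a_at it read 160 to 197 (median 177.5) in creatine-fed mice and 194 to 209 (median 202) in untreated mice. Of the 6 creatine-fed mice 5 lay below all untreated mice. The log2 difference was -0.16 ± 0.06 (SE, 95% interval -0.28 to -0.03), with an unadjusted p of 0.0214 and an adjusted p of 0.332 in limma's fit. Its other probe set, 1415898_at, was dim, at 9 ± 4.98 (SD, n = 6) in creatine-fed mice and 6.14 ± 7.01 (SD, n = 7) in untreated mice, and differed by 0.20 in the other direction. With creatine-fed replicate 4 and untreated replicate 3 left out, the mice with the least cerebellar marker signal in their groups, the difference at the brighter probe set was -0.15 with an unadjusted p of 0.0502.

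The peroxiredoxins, thiol enzymes that reduce hydrogen peroxide, showed small differences. Prdx2, abundant in neurons, read 1691 to 1961 (median 1840) in creatine-fed mice and 1746 to 1931 (median 1832) in untreated mice, a log2 difference of 0.00 ± 0.06 (SE, 95% interval -0.12 to 0.12). The mitochondrial Prdx3 differed by 0.01 ± 0.10 (SE), and Prdx4, of the endoplasmic reticulum, by 0.07 ± 0.06 (SE). Srxn1, the sulfiredoxin that restores over-oxidised peroxiredoxins, read 382 to 443 (median 426.5) in creatine-fed mice and 377 to 449 (median 429) in untreated mice, a log2 difference of 0.00. The 4 probe sets of Prdx4 ran from -0.23 to 0.40, the upper end at a dim probe set, 1431269_at, with 8.83 in creatine-fed mice and 2.43 in untreated mice on average.

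In the thioredoxin system, Txn1, the cytosolic thioredoxin, read 1191 to 1443 (median 1288) in creatine-fed mice and 1139 to 1327 (median 1279) in untreated mice, a log2 difference of 0.07 ± 0.07 (SE). Txnrd1, its reductase, differed by -0.04 ± 0.06 (SE). Txnrd2, the mitochondrial reductase, read 60 to 88 (median 72) in creatine-fed mice and 73 to 92 (median 89) in untreated mice. In 3 of the 6 creatine-fed mice it was below all untreated mice. The log2 difference of Txnrd2 was -0.18 ± 0.08 (SE, 95% interval -0.35 to -0.01), with an unadjusted p of 0.0416 and an adjusted p of 0.398 in limma's fit, and among its further probe sets 2 were also lower (-0.18 and -0.04) and 1 was higher (0.04).

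Txn2, the mitochondrial thioredoxin, had probe sets on both sides of 0. Its brightest, 1455640_a_at, read 321 to 387 (median 343) in creatine-fed mice and 339 to 413 (median 378) in untreated mice, with a log2 difference of -0.12 ± 0.07 (SE, adjusted p = 0.526). At 1452782_a_at Txn2 read 300 to 356 (median 327.5) in creatine-fed mice and 254 to 322 (median 290) in untreated mice, a log2 difference of 0.16 (unadjusted p = 0.0332 by limma). No direction is given for the gene.

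Superoxide dismutases convert superoxide to hydrogen peroxide, which catalase breaks down. Sod1, the copper-zinc enzyme of the cytosol, read 1504 to 1919 (median 1726) in creatine-fed mice and 1584 to 1843 (median 1704) in untreated mice, a log2 difference of -0.004 ± 0.07 (SE). The mitochondrial Sod2 differed by 0.07 ± 0.06 (SE) at its brightest probe set, and its 4 probe sets ran from -0.12 to 0.30. Sod3, the extracellular form, differed by 0.05 ± 0.11 (SE). Cat read 297 to 359 (median 326.5) in creatine-fed mice and 301 to 405 (median 336) in untreated mice, a log2 difference of -0.10 ± 0.08 (SE), and -0.19 at its other probe set. None of these 4 genes had an unadjusted p under 0.05 at its brightest probe set.

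Of the metallothioneins, Mt2 and Mt3 had 1 probe set each and Mt1 had a second, dim one. Mt1 read 2602 to 3027 (median 2963) in creatine-fed mice and 2532 to 3115 (median 2859) in untreated mice, a log2 difference of 0.05 ± 0.07 (SE). Mt2 read 637 to 862 (median 802) in creatine-fed mice and 800 to 917 (median 869) in untreated mice. Of the 6 creatine-fed mice 3 lay below all untreated mice, and the log2 difference was -0.15 ± 0.08 (SE, adjusted p = 0.485). Mt3, the form enriched in brain, read 1729 to 2310 (median 1871) in creatine-fed mice and 1849 to 2225 (median 2007) in untreated mice, a log2 difference of -0.07.

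Mt1 and Mt2 lie next to each other and are known to be induced together by zinc and glucocorticoids. Across the 13 mice, after each group's mean was removed, Pearson's r between them was -0.06 and Spearman's rho -0.12 (permutation p = 0.837 and 0.703, adjusted p = 0.845 and 0.833 over 7 pairs). It was -0.41 without the 2 mice farthest from the median of Mt1, so no relation between them was found. Their promoter windows are shown because zinc acts on both through metal response elements. They come from RefSeq on GRCm38.p6, at chr8:94178839-94179138 for Mt1 and chr8:94172368-94172667 for Mt2, plus strand, with the core TGCNCNC in capitals on either strand.
Mt1: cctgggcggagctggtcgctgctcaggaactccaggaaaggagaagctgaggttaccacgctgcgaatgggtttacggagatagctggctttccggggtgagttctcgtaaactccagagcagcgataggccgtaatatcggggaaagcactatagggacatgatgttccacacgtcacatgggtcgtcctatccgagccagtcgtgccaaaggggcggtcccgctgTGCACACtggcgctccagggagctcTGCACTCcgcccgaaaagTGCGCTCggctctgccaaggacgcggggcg
Mt2: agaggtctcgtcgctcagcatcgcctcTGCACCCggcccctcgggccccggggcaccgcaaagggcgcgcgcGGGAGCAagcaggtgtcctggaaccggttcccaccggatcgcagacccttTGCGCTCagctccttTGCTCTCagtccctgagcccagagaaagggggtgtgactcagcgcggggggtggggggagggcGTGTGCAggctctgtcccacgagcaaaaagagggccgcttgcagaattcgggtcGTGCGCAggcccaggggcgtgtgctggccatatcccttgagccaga
Mt1 has 3 matches, all on the given strand, and Mt2 has 6, with 3 on each strand. Of 32851 promoters of this length, 7.1% had at least 3 matches and 0.225% at least 6. The core is short and occurred at least once in 51.0% of all promoters and in 55.3% of the members' windows.

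Agreement between probe sets was limited. Of the 33 measured members, 10 had 1 probe set and 23 had several. Among those 23, all probe sets had the same sign in 7 genes and mixed signs in 16. Counting every probe set, 10 of 71, or 14.1%, had an unadjusted p under 0.05, against 11.9% of all probe sets. Of those 10, 6 were not the brightest of their gene, and all 6 had higher means in creatine-fed mice: they belong to Gclm, Keap1, Sod2, Txn2, Txnrd1 and Prdx4. Those of Txnrd1 and Prdx4 were dim, and none of the 6 passed after adjustment.

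Members could also be compared with each other across mice, after each group's mean was removed. In all, 7 pairs with a known functional link were tested by permutation, and none passed after adjustment over the pairs. The largest coefficient was that of Keap1 and Nfe2l2, with r = -0.65 and rho = -0.66 (permutation adjusted p = 0.185 and 0.180 over the 7 pairs). It was -0.52 after each array was centred and -0.43 without the 2 mice farthest from the median of Keap1. Gclc and Gclm at their brightest probe sets had r = 0.24. At the second Gclm probe set, taken after its values were seen, r was 0.80 and rho 0.81, and r was 0.90 without the 2 farthest mice and 0.77 after each array was centred. These last values are a description, with no test.

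One further measure varied widely between mice. The summed intensity of 6 cerebellar granule cell markers (Cbln1, Cbln3, Gabra6, Neurod1, Zic1 and Zic2) ran from 3000 to 8575 in creatine-fed mice and from 1016 to 11271 in untreated mice. Creatine-fed replicate 4 and untreated replicate 3 had the lowest sums of their groups. The groups overlapped in this sum. How much cerebellum each dissected hemisphere held is not labelled.

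Within groups, 3 of the 33 members varied with this sum past an adjusted p of 0.05 for r, a relation looked at after the data were seen. It was computed for the members alone, so no share of all genes can be set beside this count. Gclc was higher in mice with more of these markers, with r = 0.75 and rho = 0.82 (permutation adjusted p = 0.00842 and 0.0233 over 33 relations). Gstm5, a transferase of brain and testis, ran the other way, with r = -0.71 and rho = -0.83 (permutation adjusted p = 0.00842 and 0.0233). Mt2 had r = 0.62 and rho = 0.59 (permutation adjusted p = 0.00935 and 0.154), so its rank correlation did not pass. Without the 2 mice farthest from the median sum, r was 0.65 for Gclc, -0.75 for Gstm5 and 0.66 for Mt2. Keap1 and Nfe2l2 ran in opposite directions with the sum, at r = -0.66 and 0.59 (permutation adjusted p = 0.0946 and 0.1035). Without those 2 mice their r was -0.51 and 0.17. The part of the sum in the correlations of Keap1 with Nfe2l2 and of Gclc with Gclm was not tested.

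The group difference of Gclc, 0.33 in log2 units, was read again with the marker sum held fixed. With the sum as a covariate it was 0.31 (limma adjusted p = 0.138), and with both mice of lowest sum left out it was 0.36 (adjusted p = 0.148). For Gpx4 the same fits gave -0.31 and -0.32. Mt2 differed by -0.16 with the covariate and by -0.11 without those 2 mice. The count of members at an unadjusted p under 0.05 was 5 with the covariate, where 12.5% of all genes had one, and 4 without the 2 mice, where 10.4% did.

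**Figure D3:**
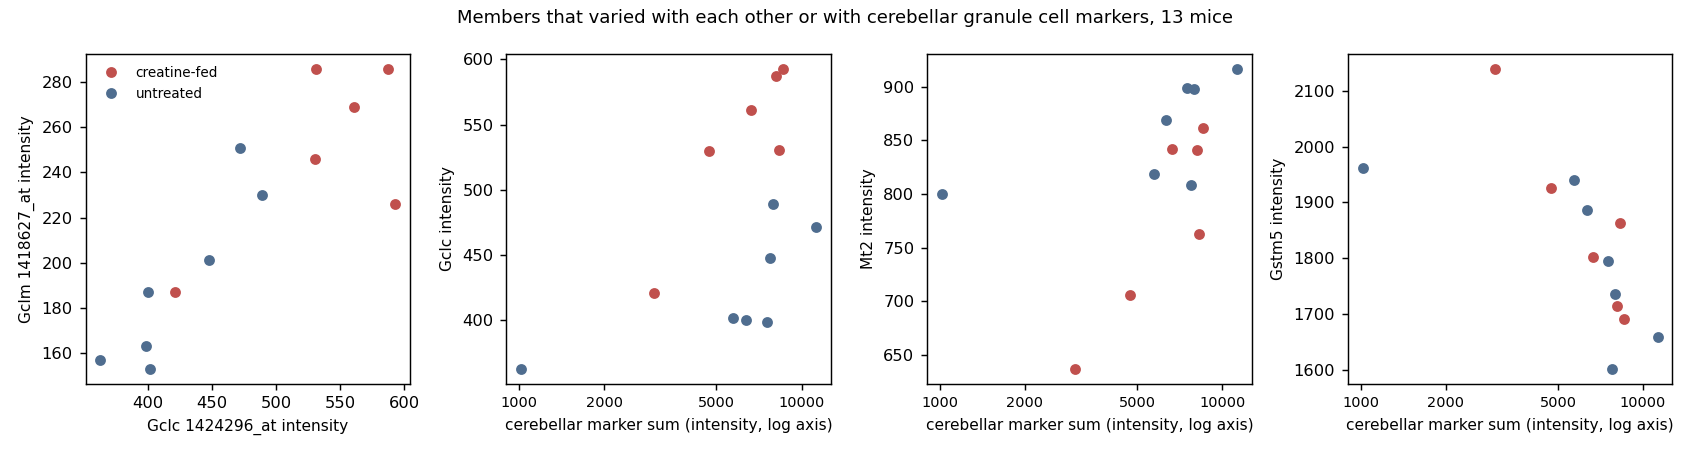
Intensities of the 13 mice, 6 creatine-fed and 7 untreated: Gclm at 1418627_at against Gclc (first panel), and Gclc, Mt2 and Gstm5 against the summed intensity of 6 cerebellar granule cell markers on a log axis (other panels). Gclc and this Gclm probe set, chosen after its values were seen, climb together in both groups, and Gstm5 is lower where the marker sum is larger. At the brightest Gclm probe set, 1439050_at, not plotted here, r with Gclc was 0.24 after each group's mean was removed.

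Genes around the members were read from 6 further lists, 94 genes of which 89 were measured. None passed after adjustment, and 15, or 16.9%, had an unadjusted p under 0.05, where 11.2% of all genes did. Of the 15, 4 were higher and 11 lower, and after each array was centred the count was 8 of 89, where 9.81% of all genes had such a p. Means were lower for 61 of the 89, where 58.5% of all genes were lower, with a median of -0.04 where all genes had -0.03. With centred arrays, 43 of the 89 were lower, where 42.5% of all genes were.

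Iron and haem genes were the list with the lowest median, -0.13. All 8 measured members had lower means in creatine-fed mice, where 58.5% of all genes did. After centring 7 of 8 were lower, where 42.5% of all genes were. An unadjusted p under 0.05 was found for 3, where 11.2% of all genes had one. Aco1, an iron-regulatory protein in its iron-poor state, read 282 to 335 (median 296) in creatine-fed mice and 329 to 360 (median 345) in untreated mice, with a log2 difference of -0.19 ± 0.06 (SE, adjusted p = 0.252). Tfrc, the transferrin receptor, read 583 to 654 (median 636.5) in creatine-fed mice and 656 to 764 (median 691) in untreated mice, a log2 difference of -0.15 (adjusted p = 0.325). All 6 creatine-fed mice lay below every untreated mouse for Tfrc, and 0.649% of all genes had groups that did not overlap. Fth1, the ferritin heavy chain, differed by -0.13 (adjusted p = 0.408). After centring, 0 of the 8 kept an unadjusted p under 0.05, where 9.81% of all genes had one.

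Gpx1, Gpx3, Gpx4 and the thioredoxin reductases are selenoproteins, and 13 further genes of selenium were measured. Of the 13, 10 had lower means, where 58.5% of all genes did, and none passed. After centring 6 of 13 were lower, where 42.5% of all genes were. Selenop, the plasma selenium carrier that also supplies the brain, read 2713 to 2970 (median 2834) in creatine-fed mice and 2996 to 3511 (median 3115) in untreated mice, with no overlap and a log2 difference of -0.17 ± 0.06 (SE, adjusted p = 0.292). Dio2, the astrocyte enzyme that activates thyroid hormone, was higher by 0.18 (adjusted p = 0.307), with 4 of 6 creatine-fed mice above all untreated mice. Next by p were Selenow and Msrb1, which differed by -0.09 and -0.11 (adjusted p = 0.530 for each). The groups of Selenow did not overlap either, at 6686 to 7333 in creatine-fed mice and 7355 to 7651 in untreated mice. Among all genes, 0.649% had groups that did not overlap.

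Further glutathione enzymes had lower means in 20 of 25, with a median of -0.10, where 58.5% of all genes were lower. After centring 15 of 25 were lower, where 42.5% of all genes were. Gstm6, which was dim, differed by -0.39 (adjusted p = 0.320), Gstm7 by -0.21 (adjusted p = 0.391) and Glrx2, the mitochondrial glutaredoxin, by 0.13 (adjusted p = 0.364). NADPH supply, which feeds both reductases, had 5 of 12 higher and a median of -0.03, equal to that of all genes. With centred arrays, 2 of its 12 genes were lower, where 42.5% of all genes were. Pgls, of the pentose phosphate pathway, was higher by 0.19 (adjusted p = 0.416), Me2 differed by -0.13 and Pgd by 0.11.

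Partners and targets of Nrf2 had 10 of 19 higher and 9 lower, where 58.5% of all genes were lower. With centred arrays, 7 of the 19 were lower, where 42.5% of all genes were. Mafk, a small Maf protein that pairs with Nrf2 on DNA, read 65 to 83 (median 74.5) in creatine-fed mice and 82 to 172 (median 97) in untreated mice, with a log2 difference of -0.39 ± 0.13 (SE, adjusted p = 0.253). Osgin1, an oxidative stress-induced growth inhibitor, was dim. It read 4 to 31 (median 16) in creatine-fed mice and 1 to 9 (median 3) in untreated mice. The log2 difference of Osgin1 was 0.60 (limma adjusted p = 0.217), a value that depends on the added offset at this intensity. Abcc1, an exporter of glutathione conjugates, differed by -0.17 (adjusted p = 0.289). Thiol and repair genes had lower means in 8 of 13, where 58.5% of all genes did. With centred arrays, 7 of the 13 were lower, where 42.5% of all genes were. Among these 13 genes, Txnip, which binds and inhibits thioredoxin, differed by -0.26 (limma adjusted p = 0.283). The sestrins Sesn1 and Sesn2 differed by -0.14 and -0.26.

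**Figure D4:**
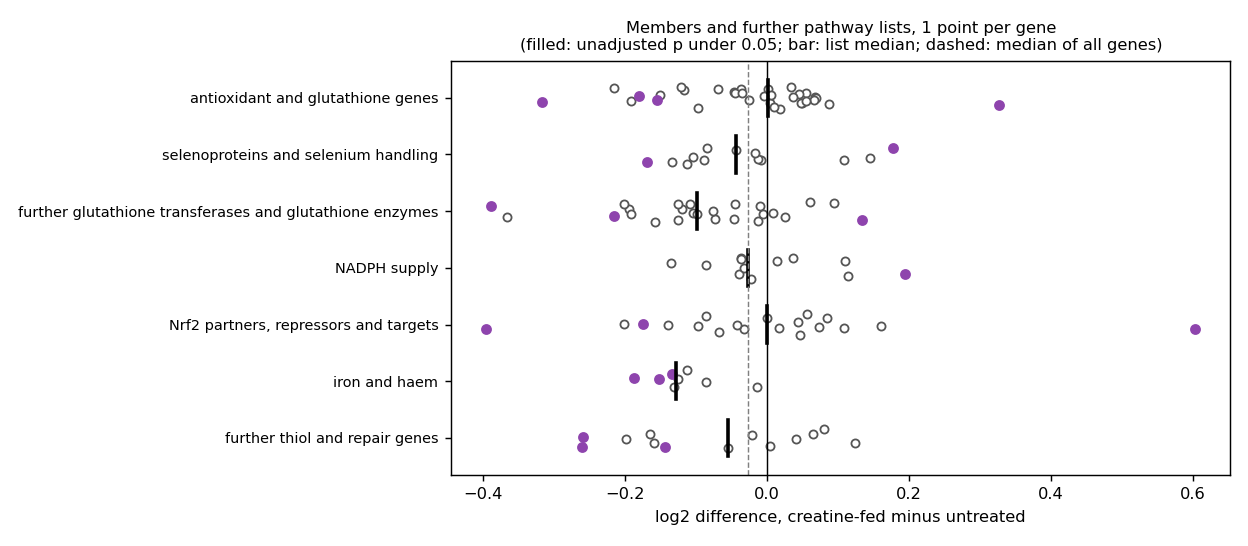
Log2 difference (creatine-fed minus untreated, horizontal axis) of each measured member and of each gene of 6 further lists, 1 point per gene; filled points have an unadjusted p under 0.05, short bars are list medians and the dashed line is the median of all genes. All 8 iron and haem genes lie below 0, as do 58.5% of all genes, and the members are centred on 0.

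Cell type markers and RNA quality were read from the same arrays. For the counts of markers below, 58.5% of all genes had lower means in creatine-fed mice, or 42.5% after centring. Neuronal markers summed to 21312 to 23207 in creatine-fed mice and 21681 to 24854 in untreated mice. Of these markers 3 of 6 were higher, and 3 of 6 were lower after centring. Astrocyte markers had lower means in 9 of 10 (6 of 10 after centring), with sums of 16981 to 17758 in creatine-fed mice and 17663 to 19845 in untreated mice. Oligodendrocyte markers had lower means in 7 of 8 (6 of 8 after centring), with sums of 17511 to 19842 in creatine-fed mice and 19184 to 23676 in untreated mice. The astrocyte and oligodendrocyte sums weigh bright genes most. Aldoc averaged 5871 in creatine-fed mice and 6689 in untreated mice, and Mbp averaged 9139 and 10800. Aldh1l1 of astrocytes and Cnp of oligodendrocytes had higher means in creatine-fed mice. Microglial markers had higher means in 6 of 7, and 0 of 7 were lower after centring. Endothelial markers had lower means in 3 of 4, also after centring. Their sums were 750 to 880 in creatine-fed mice and 870 to 1009 in untreated mice. Choroid plexus markers were lower in 5 of 7, or 3 of 7 after centring. Red blood cell markers, of which 3 of 6 were measured, were lower in 2 of 3, also after centring. No measured marker was at 0 on any array, the defining Gfap, Mbp, Csf1r, Ttr, Cldn5, Snap25 and Gabra6 among them. The defining red blood cell marker Hbb-b1 was not measured. Dim markers were Slc4a1 and Hba-a1 of red blood cells, Aqp1, Otx2, Kcne2 and Folr1 of choroid plexus, and Itgam of microglia. All of these dim markers were among those with lower means. The part of these markers in the values of Gpx4, Mgst1, Selenop and the iron genes was not tested. The mean log2 ratio of 3' to 5' control probe sets was 0.173 ± 0.0441 (SD, n = 6) in creatine-fed mice and 0.196 ± 0.0442 (SD, n = 7) in untreated mice (exact permutation p = 0.381, 2-sided). It is the mean of an actin and a Gapdh ratio, which differed in opposite directions. The actin ratio averaged 0.626 in creatine-fed mice and 0.698 in untreated mice (exact permutation p = 0.1305). That of Gapdh averaged -0.279 and -0.307 (exact permutation p = 0.354). Pearson's r of an array with the others, over probe sets, had medians from 0.977 to 0.982.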

How the data were processed

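The deposited table holds 1 intensity per probe set and array, on a linear scale in whole numbers, for 13 arrays made from 3 µg of total RNA each, per the labels. The submitters' processing notes name RMA, which returns log2 values, so the deposited intensity values cannot be its direct output. Every array had the same 2% trimmed mean, 150.05, which is the form of a global scaling by the authors, by a tool that is not given in the sources used here. The values were not rescaled.

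Log2 of the intensity plus an offset of 16 was fitted with limma 3.58.1 (lmFit and eBayes, R 4.3.3), 2-sided and with no covariate, over 45037 probe sets after 64 control probe sets were set aside; the p-values received a Benjamini-Hochberg adjustment across this whole set, with a threshold of 0.05. Fold changes are on this offset scale, which understates those of dim probe sets. Of the probe sets, 34945 carried 1 symbol, 932 several and 9160 none; 34741 symbols were updated through the Entrez ID. A probe set was called dim when its mean lay below every array's median. Correlations across mice used values less the group mean, 100000 permutations within groups (scipy 1.17.1) and adjustment over the pairs or relations named.

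The labels call the mice biological replicates. The members and lists were chosen with earlier results of these data known. Ranges with medians are given for members with an unadjusted p under 0.05 and for those whose groups do not overlap. They are also given for the brightest member of each role. Single mice are plotted for the members with such a p and for Gclm, Mt2 and Gstm5. Ranges of some other members were added after their values were seen. From each further list up to 3 genes with the smallest p are named, or all with a p under 0.05. The relation to cerebellar markers and the use of second probe sets were chosen after the data were seen. Alternatives tried were offsets of 1 and 50, quantile normalization, centring, the brighter probe sets, other variance settings, array weights, a 3'/5' covariate, averaged probe sets, a replicate block and leaving out mice. Same-numbered mice of the 2 groups correlated in their deviations from -0.06 to 0.15, so the numbers were not taken as pairs. The fit was tested on simulated data. Precision is limited by the number of arrays. Promoter windows came from RefSeq tables, and plots were made in Python 3.11.15 (matplotlib 3.10.9).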

Additional observations from a re-analysis of the deposited data

Results flagged for a closer look

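Each member's brightest probe set was screened for single mice far from the rest of their group, in 66 groups of values. Chance flags about 1 in 20 such groups, and 2 were found, both in creatine-fed replicate 4. For Gclc this mouse read 421, while the other creatine-fed mice read 530 to 593. For Txnrd1 it read 531, while the others read 422 to 462. The same mouse had the lowest sum of cerebellar granule cell markers of its group, 3000; the part of those markers in the values was not tested. Without this mouse 6 members in place of 4 had an unadjusted p under 0.05, where 10.5% of all genes did.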

How the results depend on the processing

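No member passed after adjustment in any setting tried except 2, each with 1 call, Gpx4: testing only the brighter probe sets (1 of 32, Hmox1 being left out as dim, where 137 of 22519 probe sets passed) and eBayes with trend and robust (1 of 33, where 161 of 45037 did). Centring each array left 2 members at an unadjusted p under 0.05, where 9.81% of all genes had one, and 10 with lower means, where 42.5% did. With the replicate block 0 members were called and 14 were lower. An unadjusted p under 0.05 was found there for 3 members and for 9.64% of all genes. Leaving out each mouse in turn gave 0 to 0 calls, 2 to 6 members at an unadjusted p under 0.05 (2 without creatine-fed replicate 3) and 14 to 19 lower. In those fits 9.1% to 11.3% of all genes had such a p. Gclc and Gpx4 kept their sign and an unadjusted p under 0.05 in all 26 fits, 0.16 to 0.39 and -0.36 to -0.21, but Gclc differed by -0.014 at probe set 1455959_s_at. Mgst1 turned to 0.0222 with all its probe sets averaged and to 0.20 at 1415898_at, and had an unadjusted p under 0.05 in 22 of 26 fits. Txnrd2 turned to 0.0379 at 1429971_at and had one in 12 of 26. The causes were not tested. Gclm differed by 0.36 at 1418627_at. Over all probe sets 4 were called as reported, and the count ran from 0 (offset of 1, the replicate block and 7 of the fits without 1 mouse among them) to 161.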
